A study of Saccharomyces cerevisiae with 6 samples.

Results

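Peroxisomal beta-oxidation enzymes and their transcriptional regulators were read out in budding yeast overexpressing ACC1 and in the wild type strain. The genes were taken by name from a list of 10, which was chosen with earlier results of these data known. The list held the core enzyme genes POX1, FOX2 and POT1 and the auxiliary enzyme genes ECI1, DCI1 and SPS19. It also held the thioesterase gene TES1 and the regulator genes OAF1, PIP2 and ADR1. A probe was found for 9 of the 10 among the 979 yeast genes of the array, and no probe carried the name or an alias of PIP2. The data were 6 single-colour oligonucleotide arrays hybridized with biotin-labelled amplified RNA, 3 from Saccharomyces cerevisiae overexpressing ACC1 in the wild type background and 3 from the wild type strain itself. ACC1 encodes acetyl-CoA carboxylase, whose product malonyl-CoA feeds fatty acid synthesis. No source used here gives the promoter or plasmid behind the overexpression, the carbon source or the growth phase. Nor do the labels say whether replicates came from separate cultures, and the p-values cover no more than the spread between these arrays, which may be technical.

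In yeast, fatty acids are broken down only in peroxisomes, by a repeated cycle that releases acetyl-CoA. The acyl-CoA oxidase Pox1 starts the cycle, the multifunctional protein Fox2 hydrates and then dehydrogenates its product, and the thiolase Pot1 cleaves off acetyl-CoA. Unsaturated chains also need auxiliary isomerases and a reductase, among them Eci1, Dci1 and Sps19. Oaf1 pairs with Pip2 to induce these genes on oleate, and Adr1 activates many of them when glucose is used up. Glucose represses them.

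The measurements rest on 1 probe per gene, shown here because each value below is the signal of that oligonucleotide alone. The letters are printed as the scanner files list them, and capitals mark the longest run, or the first of several of that length, that the probe shares with a probe of another gene on the array.
POX1: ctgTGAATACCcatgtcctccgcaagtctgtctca
FOX2: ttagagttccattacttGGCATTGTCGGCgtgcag
POT1: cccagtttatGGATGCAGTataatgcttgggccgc
ECI1: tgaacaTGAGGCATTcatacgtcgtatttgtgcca
DCI1: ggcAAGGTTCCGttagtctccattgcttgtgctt
SPS19: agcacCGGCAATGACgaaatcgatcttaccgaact
TES1: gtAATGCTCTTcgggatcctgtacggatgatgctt
OAF1: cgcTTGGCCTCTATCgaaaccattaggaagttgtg
ADR1: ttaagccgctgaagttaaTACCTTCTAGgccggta

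The shared runs were 8 to 12 bases long, the longest being those of FOX2, shared with the PLC1 probe, and of OAF1, shared with the OAR1 probe. The search covered the probes of the array alone, and transcripts without a probe were not examined. The GC content ran from 42.9% for ECI1 to 51.4% for POX1 and POT1. Each probe name gives a span of positions counted downwards, such as 541 to 507 for ECI1 (YLR284C) and 3063 to 3029 for OAF1 (YAL051W). Read as the reverse complement in the frame these positions set, 0 of 979 probes held a stop codon, against 45.0% of the probes read as listed. The listed letters are therefore complementary to the coding strand. Per the labels' protocols the labelled RNA was itself antisense, and no source used here says which strand was synthesized on the array. The 9 genes lie on 9 different chromosomes.

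The ACC1 overexpression arrays were dimmer than the wild type arrays. The median intensity over yeast spots was 1900 ± 114 on the ACC1 overexpression arrays and 4120 ± 440 on the wild type arrays (SD, n = 3 each), and normalization brought the arrays to a common distribution. The wild type to ACC1 overexpression ratio of these medians was 2.17, and it was 1.88 for control probes with no yeast gene. The label was checked on ACC1 itself, which was higher by 2.32 on the log2 scale (standard error 0.07, adjusted p = 1.18e-07 in limma). All values below are normalized log2 intensities unless raw intensities are named, and the number of arrays limits their precision.

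At an adjusted p of 0.05 (limma, all 979 genes), none of the 9 genes passed, where 3.47% of all genes did, 2.66% higher and 0.817% lower in ACC1 overexpression. Differences ran from −0.27 for TES1 to 0.24 for ECI1, with 3 genes higher, 6 lower and a median of −0.02, against a median of −0.01 over all genes. Unadjusted p-values were below 0.05 for 3 of the 9 genes, ECI1, FOX2 and TES1, against 20.1% of all genes. The same 3 genes had groups that did not overlap, 1 of them higher and 2 lower in ACC1 overexpression. Over all genes the groups did not overlap for 24.7%, namely 13.3% higher and 11.4% lower. In bulk RNA, fewer cells expressing a gene and less RNA per cell cannot be told apart.

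**Figure D1:**
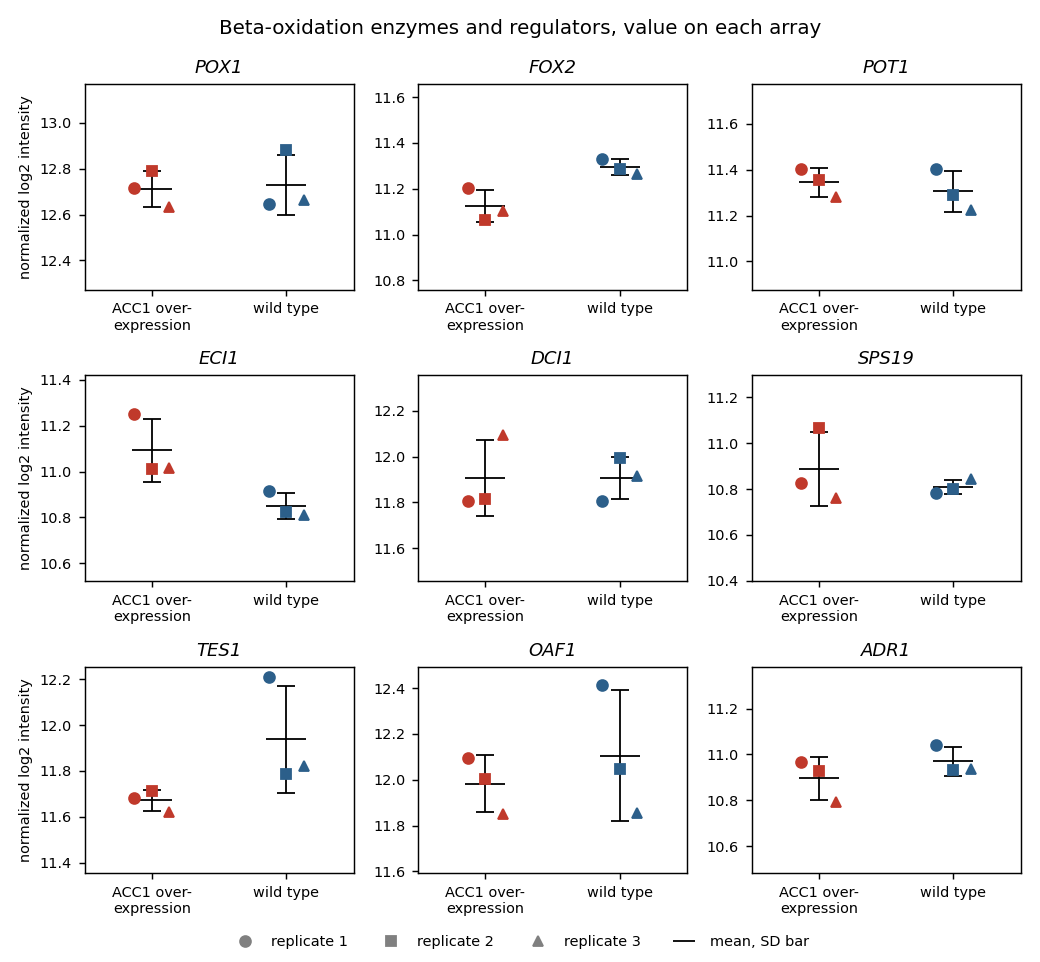
Normalized log2 intensity (y axis, each panel spanning the same range) of the 9 genes on the ACC1 overexpression arrays (left, red) and the wild type arrays (right, blue). Symbols stand for replicates and bars for the mean ± SD (n = 3 each). The ECI1 groups do not overlap, with ACC1 overexpression higher, those of FOX2 and TES1 do not overlap, with ACC1 overexpression lower, and the other 6 overlap.

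Several of the genes gave signals near those of the control probes. A gene counted as above the control probes where its signal topped the 95th percentile of the 26 control probes of that array. POX1, FOX2, POT1, DCI1, TES1 and OAF1 did so on all 6 arrays. ECI1 did so on 3 of 3 ACC1 overexpression arrays and 1 of 3 wild type arrays. SPS19 did so on 1 of 3 arrays of each group and ADR1 on 2 of 3 arrays of each group. Whether background had been subtracted from the deposited intensities is not stated, and differences of dim genes may be understated or shifted where it was not.

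**Figure D2:**
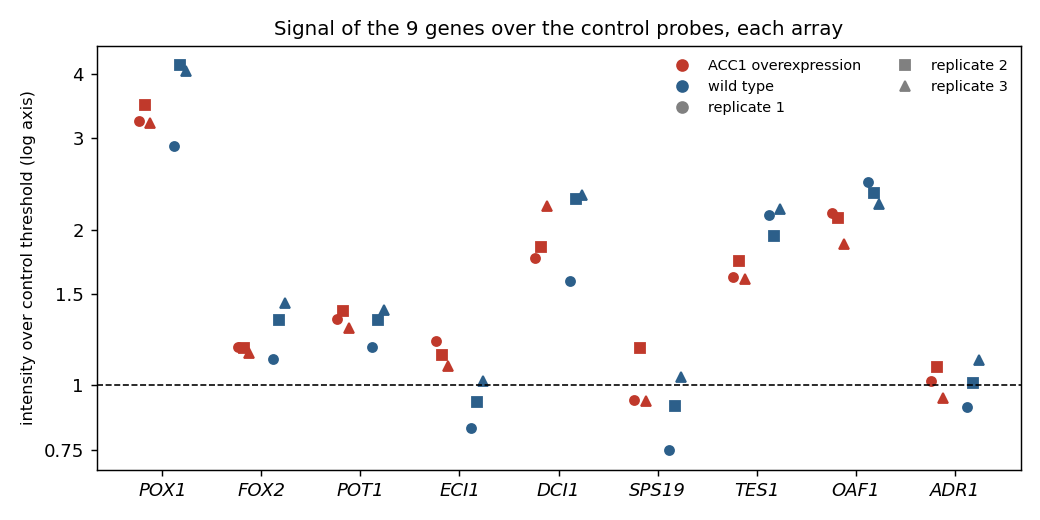
Raw intensity of each gene divided by the 95th percentile of the control probes on the same array (y axis, log scale) for ACC1 overexpression (left of each pair, red) and wild type (right, blue), with the dashed line at equality. ECI1, SPS19 and ADR1 lie around the line, ECI1 between 1.09 and 1.22 on the ACC1 overexpression arrays and between 0.827 and 1.02 on the wild type arrays.

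Among the core enzymes, POX1, the acyl-CoA oxidase gene, showed no detectable difference. It stood at 12.72, 12.79 and 12.63 on the ACC1 overexpression arrays and at 12.65, 12.88 and 12.66 on the wild type arrays. The 2 groups overlapped, and the difference was −0.02 (95% interval −0.20 to 0.16). Its 2 spots pointed in opposite directions, with differences of −0.15 and 0.11. With the arrays scaled to the control probes, which moved the median of all genes to −0.15, POX1 stood at −0.30 (adjusted p = 0.0411), or −0.15 relative to that median. In that setting 209 of all 979 genes passed, against 34 in the main setting.

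FOX2, whose protein carries out the middle steps of the cycle, stood at 11.20, 11.06 and 11.11 on the ACC1 overexpression arrays and at 11.33, 11.29 and 11.26 on the wild type arrays. All ACC1 overexpression values lay below all wild type values. The difference was −0.17 (95% interval −0.30 to −0.04, adjusted p = 0.155 in limma), or 0.889-fold, and it was −0.16 and −0.19 at the 2 spots. Same-numbered arrays of both groups shared a position in the layout, so they may come from different slides. Strain and slide or hybridization could then not be told apart. FOX2 was lower at each of the 3 positions, with differences of −0.13, −0.22 and −0.16. FOX2 passed in 3 of 17 alternative settings. It did so with arrays scaled to the control probes (−0.30, or −0.15 relative to the median of all genes, adjusted p = 0.0308) and with array weights (−0.17, adjusted p = 0.0408). Estimated after normexp background correction with an offset of 50 and the position as a block, the difference was −0.43 (adjusted p = 0.0314). These settings called 209, 176 and 142 genes. The array weights, used here and below, were 3.60 for wild type replicate 2, against 0.439 and 0.480 for wild type replicates 1 and 3. The weighted wild type mean thus rested mainly on 1 array. FOX2 missed the threshold with that normexp alone (adjusted p = 0.116) and with the block alone (0.0755).

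POT1, the thiolase gene, stood at 11.40, 11.35 and 11.28 on the ACC1 overexpression arrays and at 11.40, 11.29 and 11.22 on the wild type arrays. Each wild type value was at or below its counterpart at the same position, but the groups overlapped. The difference was 0.04 (95% interval −0.11 to 0.19), and −0.12 with arrays scaled to the control probes. The 3 core enzymes thus had differences of −0.02, −0.17 and 0.04, and their intervals overlapped each other.

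Of the auxiliary enzymes, ECI1 had the smallest unadjusted p of all 9 genes. It encodes the enoyl-CoA isomerase that moves the double bond of unsaturated fatty acids into a place the cycle can use. Its raw intensity averaged over spots was 1659, 1403 and 1548 on the ACC1 overexpression arrays, against 2482, 2489 and 2797 on the wild type arrays. Before normalization it was thus dimmer in ACC1 overexpression, as was the median yeast spot. After normalization ECI1 stood at 11.25, 11.01 and 11.02 on the ACC1 overexpression arrays and at 10.92, 10.82 and 10.81 on the wild type arrays. The 3 ACC1 overexpression values all lay above the wild type values, with replicate 1 the highest of each group.

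The ECI1 difference was 0.24 with a standard error of 0.08, or 1.18-fold (95% interval 1.05 to 1.33), and its adjusted p of 0.127 in limma missed the threshold. In an exact permutation test p was 0.1, below which a comparison of 3 with 3 arrays cannot go. Over all genes 58 had a higher difference and 920 a lower one. Both spots were higher in ACC1 overexpression, by 0.19 and 0.29, and so were all 3 positions, by 0.33, 0.19 and 0.20. ECI1 was higher in each of 17 alternative settings and passed the threshold in 6 of them. The median over its spots, the filter on dim genes, the trended variances and the block could not move the difference from 0.24. The block likewise could not move the value after normexp. The sign in these settings therefore adds nothing. ECI1 stood at 0.79 after normexp with an offset of 50 (adjusted p = 0.0461), 0.76 after normexp with the control probes (0.0430), 0.36 with a common median of the yeast spots (0.0257) and 0.26 with array weights (0.0195). With the array position as a block the difference was 0.24 (adjusted p = 0.0221), or 0.79 after normexp with an offset of 50 (0.000776). Scaled to the control probes it was 0.16 (adjusted p = 0.211), or 0.31 relative to the median of all genes. In the 6 settings where ECI1 passed, 38 to 176 of all 979 genes did, against 34 in the main setting.

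DCI1, which is named as a dienoyl-CoA isomerase gene in the files, stood at 11.81, 11.81 and 12.10 on the ACC1 overexpression arrays and at 11.81, 11.99 and 11.92 on the wild type arrays. Its difference was 0.00 (95% interval −0.20 to 0.20), and the ACC1 overexpression values spanned the wild type values. SPS19, the dienoyl-CoA reductase gene, stood at 10.83, 11.07 and 10.76 on the ACC1 overexpression arrays and at 10.78, 10.80 and 10.84 on the wild type arrays. Its normalized value was highest on ACC1 overexpression replicate 2, the only ACC1 overexpression array on which its raw signal exceeded the control probes. The SPS19 difference was 0.08 (95% interval −0.11 to 0.26), and −0.01 without that array. With a common median of the yeast spots it was 0.22 (adjusted p = 0.113).

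TES1, the peroxisomal acyl-CoA thioesterase gene, had the lowest difference of the 9 genes. It stood at 11.68, 11.71 and 11.62 on the ACC1 overexpression arrays and at 12.21, 11.79 and 11.82 on the wild type arrays. The groups did not overlap, and wild type replicate 1 lay apart from the other wild type arrays. The difference was −0.27 with a standard error of 0.11 (95% interval −0.50 to −0.03, adjusted p = 0.209 in limma). Without wild type replicate 1 it was −0.13 (adjusted p = 0.306). The 3 spots gave −0.17, −0.22 and −0.41, and the 3 positions −0.52, −0.07 and −0.20. TES1 passed with arrays scaled to the control probes (−0.49, or −0.34 relative to the median of all genes, adjusted p = 0.0139) and after normexp with an offset of 50 with the position as a block (−0.44, adjusted p = 0.0492). These settings called 209 and 142 of all 979 genes.

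Of the regulators, OAF1 encodes the oleate-activated transcription factor. It stood at 12.09, 12.01 and 11.85 on the ACC1 overexpression arrays and at 12.42, 12.05 and 11.85 on the wild type arrays. The groups overlapped, and the difference was −0.12 with a standard error of 0.13 (95% interval −0.42 to 0.18, adjusted p = 0.645 in limma). OAF1 had the widest spread between wild type arrays of the 9 genes, an SD of 0.29. On wild type replicate 1 its 2 spots had raw intensities of 5506 and 9964, a 1.81-fold ratio that 20 of 979 genes exceeded there, whereas on the other 5 arrays the ratio lay between 1.04 and 1.09. The first of these spots gave a difference of 0.00 and the second −0.24. Without wild type replicate 1 the OAF1 difference was 0.03. The differences at the 3 positions were −0.32, −0.04 and 0.00, and with arrays scaled to the control probes the difference was −0.36 (adjusted p = 0.0545), or −0.21 relative to the median of all genes.

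ADR1, the gene of the zinc-finger activator of glucose-repressed genes, stood at 10.97, 10.93 and 10.79 on the ACC1 overexpression arrays and at 11.04, 10.93 and 10.93 on the wild type arrays. The groups overlapped. The difference was −0.07 (95% interval −0.23 to 0.08), and 0.05 with a common median of the yeast spots. Neither regulator therefore showed a difference beyond the spread of its arrays. The main intervals allow changes of up to 1.13-fold higher or 0.749-fold for OAF1 and up to 1.05-fold higher or 0.855-fold for ADR1. These limits hold without background correction only. After normexp with an offset of 50, ADR1 stood at −0.26 and OAF1 at −0.16 (adjusted p = 0.438 and 0.696 in limma).

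**Figure D3:**
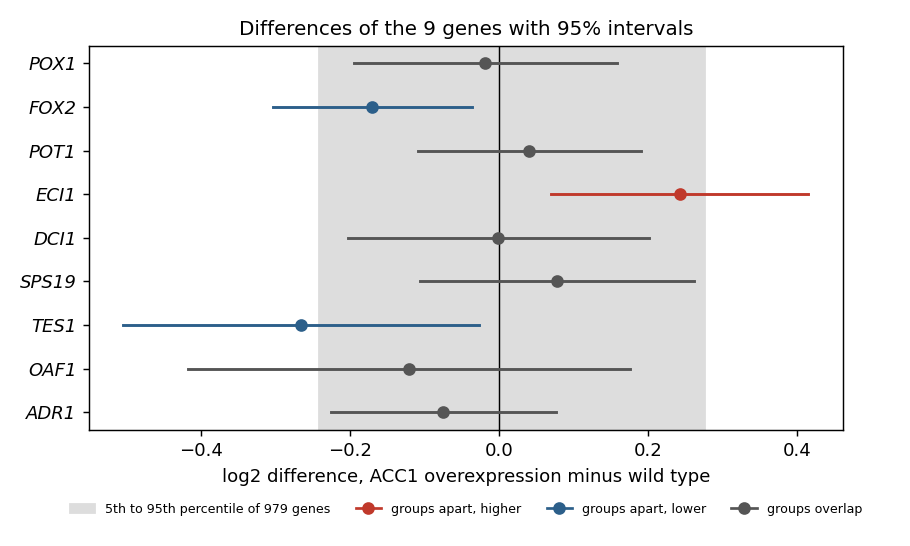
Log2 difference, ACC1 overexpression minus wild type (x axis), of the 9 genes with 95% intervals from limma, over a grey band from the 5th to the 95th percentile of all 979 genes (−0.24 to 0.28). ECI1 lies at 0.24 inside the band and TES1 at −0.27 just outside it, and the intervals of ECI1, FOX2 and TES1 do not cross 0.

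The change of ECI1 was also set against that of its regulator within each array, where a linear scaling of the array cancels. An additive background does not cancel. On the wild type arrays ECI1 lay at 0.827 to 1.02 times the control probe threshold and OAF1 at 2.24 to 2.47 times. The wild type to ACC1 overexpression ratio was 1.88 for control probes and 2.17 for the median yeast spot. How much of the ECI1 to OAF1 difference comes from background was not tested. The log2 signal of ECI1 minus that of OAF1 was −0.85, −0.99 and −0.84 on the ACC1 overexpression arrays and −1.50, −1.22 and −1.04 on the wild type arrays. All ACC1 overexpression values lay above all wild type values. The means were −0.89 ± 0.09 in ACC1 overexpression and −1.25 ± 0.23 in wild type (SD, n = 3 each), so that they lay 0.36 apart. Here too the two-sided exact permutation test could not go below its p of 0.1. The difference was 0.52 with either linear scaling, 0.95 after normexp with an offset of 50 and 0.93 after normexp with the control probes. Without wild type replicate 1, on which the OAF1 spots differed 1.81-fold, it was 0.24 (exact p = 0.2).

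**Figure D4:**
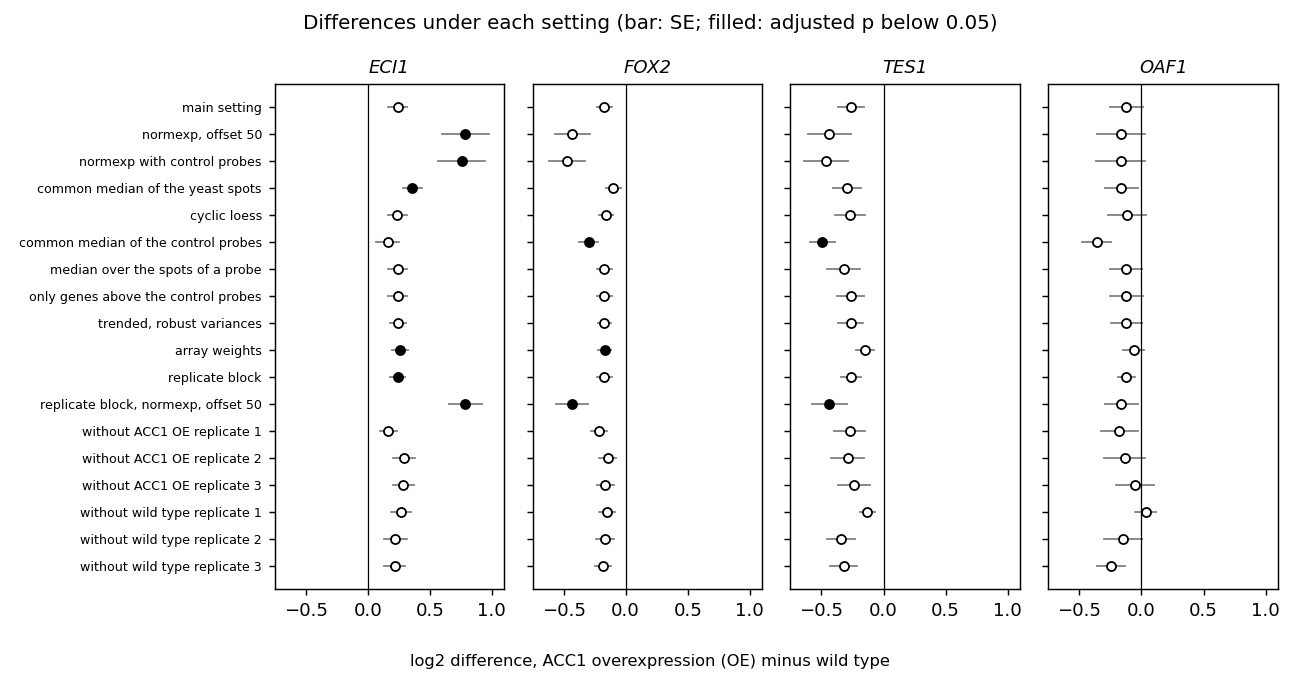
Log2 difference, ACC1 overexpression minus wild type (x axis), of ECI1, FOX2, TES1 and OAF1 under the main setting and 17 alternatives (rows). Bars are standard errors, and filled points passed an adjusted p of 0.05. ECI1 is positive and FOX2 and TES1 are negative in every row, while OAF1 crosses to 0.03 without wild type replicate 1. In the rows of the filter on dim genes, the trended variances and the replicate block, the difference equals the main one by design.

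The 9 genes did not vary together over the 6 arrays as a single set. Pearson correlations between them, given as a description over 6 arrays that share their normalization, ran from −0.83 for DCI1 with ADR1 to 0.83 for TES1 with OAF1. ADR1 went with OAF1 (r = 0.82) and with TES1 (r = 0.77), and FOX2 with TES1 (r = 0.74). ECI1 had r = 0.08 with OAF1 and −0.05 with ADR1. Wild type replicate 1 was the highest wild type array for 6 of the 9 genes, against 33.8% of all genes, and ACC1 overexpression replicate 1 was the highest of its group for 5 of the 9, against 34.1%. The genes whose values lay closest to those of ECI1 were GAT2 (r = 0.96), YMR114C (0.95) and LAG1 (0.94). YMR114C passed the threshold, with a difference of 0.40 (adjusted p = 0.0413 in limma). Those closest to OAF1 were DAL2 (0.99), TOP2 (0.98) and CLA4 (0.98), none of which passed. For FOX2 they were COQ6 (0.96), ELA1 (0.95) and YKL091C (0.94), of which ELA1 passed, with a difference of −0.30 (adjusted p = 0.0413). For TES1 they were RPH1 (0.99), CPD1 (0.98) and PRP2 (0.98), none past the threshold. Nearest to POT1 were CHS3 (0.98), HIS6 (0.96) and CRD1 (0.95), and nearest to POX1 were HEM12 (0.89), CDC5 (0.89) and ADE2 (0.89). DCI1 had POS5 (0.95), SLD2 (0.94) and TSC13 (0.93), SPS19 had VAC8 (0.96), STT4 (0.94) and NMA111 (0.93), and ADR1 had COQ3 (0.95), SGF73 (0.95) and PRS3 (0.94).

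Other genes of peroxisomes and fatty acid breakdown were taken from 5 lists, chosen with earlier results of these data known. In them, 31 genes were measured. At the same threshold none passed, where 3.47% of all genes did, and 7 had an unadjusted p below 0.05, against 20.1% of all genes. Of the 31, 20 were higher and 11 lower, with a median of 0.04, against 454 higher and 525 lower of all genes. These counts include CIT2 and YAT2, whose wild type spots were saturated.

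For fatty acid activation and import, all 9 listed genes were measured, with differences from −0.11 to 0.09 and a median of 0.04. FAA4 and FAA2, which encode acyl-CoA synthetases, stood at 0.09 and 0.06. PXA1 and PXA2, whose products form the peroxisomal acyl-CoA transporter, stood at 0.05 and 0.00. The fatty acid transporter gene FAT1 stood at −0.09 and the acyl-CoA binding protein gene ACB1 at −0.11.

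Among auxiliary peroxisomal and carnitine enzymes, 9 of 17 listed genes were measured, with a median of −0.06. The peroxisomal catalase gene CTA1, which removes the hydrogen peroxide formed by Pox1, stood at 0.13 with groups that did not overlap. The carnitine acetyltransferase gene YAT1 stood at 0.16 and the mitochondrial carnitine carrier gene CRC1 at 0.09. IDP3, the peroxisomal isocitrate dehydrogenase that supplies NADPH to Sps19, stood at −0.38 (standard error 0.19, adjusted p = 0.299). Its values were 12.10, 12.08 and 11.96 on the ACC1 overexpression arrays and 12.95, 12.24 and 12.08 on the wild type arrays. The highest was again wild type replicate 1, and the groups overlapped through wild type replicate 3. IDP3 passed with arrays scaled to the control probes (−0.61, adjusted p = 0.0295 in limma). It also passed after normexp with an offset of 50 with the position as a block (−0.52, adjusted p = 0.0359). These settings called 209 and 142 of all 979 genes. PCD1, a peroxisomal nucleotide hydrolase gene, stood at −0.31 (adjusted p = 0.294). Its values were 12.98, 12.88 and 12.83 on the ACC1 overexpression arrays and 12.97, 13.63 and 13.05 on the wild type arrays, so that the groups overlapped and wild type replicate 2 lay apart. PCD1 passed with array weights (−0.60, adjusted p = 0.0113), which gave that array the highest weight, and with arrays scaled to the control probes (−0.53, adjusted p = 0.0247). These settings called 176 and 209 of all 979 genes.

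YAT2, another carnitine acetyltransferase gene, and CIT2, the peroxisomal citrate synthase gene, were bright enough to reach the scanner limit of 65535. YAT2 had raw intensities of 36217, 36393 and 46599 on the ACC1 overexpression arrays and of 56686, 65535 and 65535 on the wild type arrays. CIT2 had 46086, 45587 and 59145 on the ACC1 overexpression arrays and 56611, 61263 and 65535 on the wild type arrays. The direction of YAT2 and the size of the CIT2 difference depended on the scaling. YAT2 stood at −0.20 after quantile normalization and at 0.45 (adjusted p = 0.0196) with a common median, while CIT2 stood at 0.09 and at 0.82 (adjusted p = 0.000791). Since wild type spots were saturated, neither value measures the change of these transcripts.

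The glyoxylate cycle and gluconeogenesis list had 8 of 11 genes measured and a median of 0.17. Of the 8, 7 were higher, against 454 of all 979 genes, and 4 had an unadjusted p below 0.05, against 20.1% of all genes. The list was chosen with earlier results of these data known, so these counts are a description only. The 7 include the saturated CIT2. Both counts include DAL7, a malate synthase gene at 0.16, which was above the control probes on 0 of the 6 arrays and is 1 of the 2 genes between which the median lies. AGX1, the alanine glyoxylate aminotransferase gene, stood at 0.30 (adjusted p = 0.129), ACS1, an acetyl-CoA synthetase gene, at 0.29 (0.145), and FBP1, the fructose bisphosphatase gene, at 0.23 (0.142). PCK1, of gluconeogenesis, stood at 0.03 and MDH2, the cytosolic malate dehydrogenase gene, at −0.10. AGX1, ACS1 and FBP1 passed when the array position was a block (adjusted p = 0.0203, 0.0353 and 0.0239). In that setting 121 of all 979 genes passed, against 34 in the main setting. AGX1 and FBP1 also passed with array weights (adjusted p = 0.00563 and 0.0465 in limma) and without wild type replicate 3 (0.00827 and 0.049998). ACS1 also passed with cyclic loess (0.0294). These settings called 176, 123 and 31 genes.

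Few peroxisome assembly genes and further regulators were measured. PEX11, which promotes peroxisome division, stood at 0.21 (adjusted p = 0.305), PEX15 at 0.03, and INP2, the peroxisomal receptor for the myosin that carries peroxisomes to the bud, at −0.18 (adjusted p = 0.209) with groups that did not overlap. INP2 passed as lower with arrays scaled to the control probes (−0.34, adjusted p = 0.0247), with array weights (−0.27, adjusted p = 0.0124) and when wild type replicate 3 was left out (−0.24, adjusted p = 0.0384). These settings called 209, 176 and 123 of all 979 genes. PEX11 passed as higher when wild type replicate 3 was left out (0.31, adjusted p = 0.0373 in limma). RSF2, a zinc-finger regulator of glycerol growth, stood at 0.21 (adjusted p = 0.127) and RTG2, of the retrograde response, at 0.04. RSF2 was higher on all ACC1 overexpression arrays than on any wild type array. It passed with a common median of the yeast spots (0.30, adjusted p = 0.0283), with array weights (0.22, adjusted p = 0.0239) and with the array position as a block (0.21, adjusted p = 0.0376). These settings called 74, 176 and 121 of all 979 genes. RSF2 also passed with the block after normexp with an offset of 50 (0.55, adjusted p = 0.00836 in limma), which called 142.

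**Figure D5:**
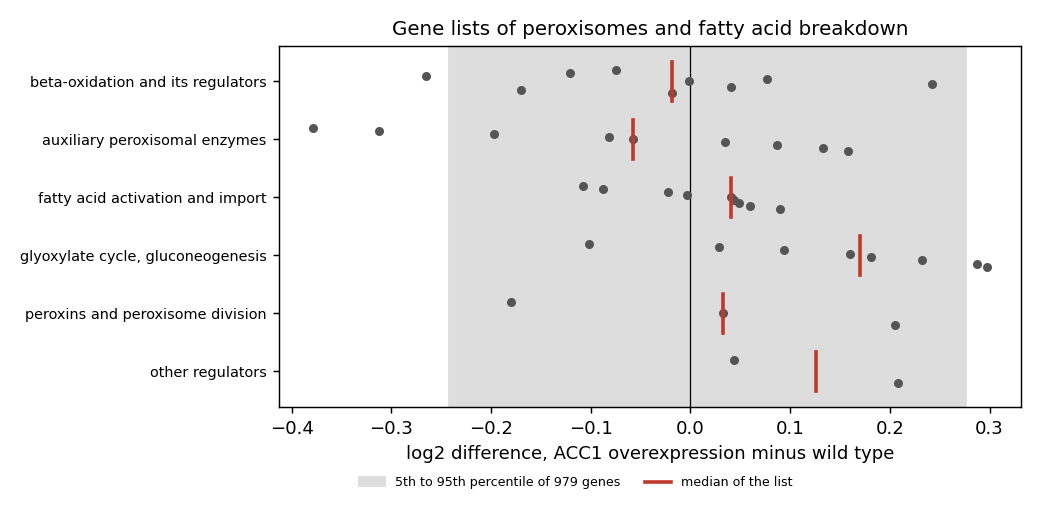
Log2 difference, ACC1 overexpression minus wild type (x axis), of the 9 beta-oxidation genes and of the measured genes of each of the 5 other lists (rows, 1 point per gene, red line at the list median), over a grey band from the 5th to the 95th percentile of all genes. The glyoxylate cycle and gluconeogenesis list has its median at 0.17, and the medians of the beta-oxidation genes and of fatty acid activation lie at −0.02 and 0.04.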

How the data were processed

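Per the file headers, the authors deposited 1 median foreground intensity per spot for each array, with 2240 spots and no background column. No source used here names the scanner software or says whether background was subtracted. The authors also deposited a table of scores with 906 rows. Row and probe numbers match, yet scores and log2 intensities were unrelated (r from −0.053 to −0.035), and the table was not used. Intensities were taken to log2, quantile normalized over yeast spots without the 26 control probes, and averaged over the 2 to 4 spots of a probe. No background was subtracted in the main setting. All 979 systematic names matched the RefSeq R64 table, used for names only. Groups were compared with limma 3.58.1 in R 4.3.3 (lmFit, eBayes), two-sided, with Benjamini-Hochberg adjustment over 979 genes. Alternatives covered background, normalization, spot averaging, dim genes, variances, weights per array, a block for the replicate number and leaving out each array.

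The members and lists were chosen with earlier results of these data known. The plan named ECI1 and OAF1 as the members, and the other 7 were added under the same name list when the files were found to hold them. Genes of each other list were named by rule: all where at most 6 were measured, otherwise the 3 highest and 3 lowest differences among genes above the control probes on at least 3 arrays. For each member the 3 most correlated such genes are named too.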

Additional observations from a re-analysis of the deposited data

How the results depend on the processing

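Of 152 values of the 9 genes under 17 alternatives, 129 kept their direction and their side of the threshold, 12 gained a call, 0 lost one and 11 changed sign. The filter on dim genes, the trended variances and the replicate block leave the difference as it was, so there the direction could not change. ECI1 gained a call at 0.79 after normexp with an offset of 50, 0.76 after normexp with the control probes, 0.36 with a common median of the yeast spots, 0.26 with array weights, 0.24 with the replicate block and 0.79 with the block after normexp. The sign changed for ADR1 with a common median of the yeast spots (0.051) and for POT1 with the control probes as the scale (−0.12). Leaving out single arrays gave −0.24 to 0.034 for OAF1, −0.10 to 0.047 for DCI1, −0.061 to 0.057 for POX1, −0.00067 to 0.085 for POT1 and −0.015 to 0.14 for SPS19. None of these values passed. The 34 genes past the threshold became 74 with a common median of the yeast spots, 209 with the control probes as the scale (6 higher and 203 lower), 176 with array weights, 121 with the replicate block, 142 with the block after normexp and 5 at an adjusted p of 0.01, and lay between 4 and 123 when single arrays were left out. The 0 list genes became 4 with a common median of the yeast spots (CIT2, YAT2, DAL7 and RSF2), 1 with cyclic loess (ACS1), 8 with the control probes as the scale, 6 with array weights, 4 with the replicate block (ACS1, AGX1, RSF2 and FBP1) and 3 with the block after normexp (DAL7, RSF2 and IDP3), and lay between 0 and 5 when single arrays were left out. These list genes were named after their values were seen, and the cause of these changes was not tested. Deviations from the group mean correlated between same-numbered arrays at r of 0.467, −0.021 and 0.385, and between differently numbered arrays at −0.498 to 0.086. Replicates 1 and 3 thus lay above every differently numbered pair, and replicate 2 did not. Whether the samples were paired, or shared an effect of position, was not tested. The deposited value table could not be tried, since its rows could not be matched to probes, and SPS19 has no value with the filter on dim genes. Signal near the control probes limits ECI1, SPS19 and ADR1.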

Other observations

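The comments in the scanner files mention oleate or peroxisomes for 24 genes, a set read from the files after they were seen. None of the 24 passed an adjusted p of 0.05 in limma, against 3.47% of all genes, 4 had an unadjusted p below 0.05, against 20.1%, and 11 were higher and 13 lower in ACC1 overexpression, with a median of 0.00. Of these genes, YJL218W, IFA38 and GTO1 belong to no list above. YJL218W, an open reading frame described there as induced by oleate through Oaf1 and Pip2, stood at 11.03 ± 0.06 in ACC1 overexpression and 11.02 ± 0.03 in wild type (SD, n = 3 each), a difference of 0.01 with a standard error of 0.06. IFA38, the ketoreductase gene of fatty acid elongation, stood at −0.06, and GTO1, a glutathione transferase gene, at −0.02.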
